A study of Homo sapiens with 6 samples.

Results

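The keratin genes were examined for TLE3 binding in MDA-MB-453, an established human breast cancer cell line labelled as breast epithelial. A keratin gene was any protein-coding gene of the RefSeq table (GRCh38) whose symbol is KRT with a number and at most 1 letter, which gave 55 of 20037 protein-coding genes. ChIP-seq (sequencing of DNA recovered by chromatin immunoprecipitation) had located TLE3 in 2 control libraries (siNS 1 and 2) and in 2 libraries of cells with transient silencing of FOXA1 (siFOXA1 1 and 2). Within a group the labels name the libraries as biological replicates of this line, and the purpose stated for the series is to learn whether TLE3 binding requires FOXA1. Peaks of the 4 lists that share at least 1 bp were merged into 72272 regions, and 116 of them lay in a keratin gene or had it as the nearest protein-coding gene within 100 kb. A region with a peak of both siNS libraries is called a siNS consensus region, one with a peak of both siFOXA1 libraries a siFOXA1 consensus region, and a siNS consensus region with a peak of at least 1 siFOXA1 library is called kept.

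Keratins are the intermediate filament proteins of epithelial cells and polymerise as pairs of a type I and a type II chain. The type II genes, and the type I gene KRT18, lie in a cluster on chromosome 12, and the other type I genes lie in a cluster on chromosome 17. Simple and luminal epithelial cells express KRT8 and KRT18 with KRT7 and KRT19, basal and activated stratified cells express KRT5 and KRT14 with KRT6, KRT16 and KRT17, and hair keratins build the hair shaft. TLE3 is a Groucho-family corepressor that is brought to chromatin by transcription factors, and FOXA1 is a forkhead protein that opens chromatin in luminal breast cells. The peak lists show where TLE3 was found and do not measure keratin RNA, TLE3 or FOXA1 protein, or FOXA1 occupancy, so the cell type named by the label could not be checked against markers.

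The longest siNS list held 46586 peaks on the numbered chromosomes and X and the shortest siFOXA1 list 12249. List length therefore differs between the groups before any keratin is considered, and read depth is unknown. With 2 libraries against 2, the smallest p of a two-sided exact permutation test is 0.333, so no difference between the groups could reach 0.05.

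RefSeq promoter windows, from 250 bases before to 50 after a gene start, were matched for 34 of the 55 keratin genes (38 windows on GRCh38.p14). KRT40 and KRT85 had more than 1 window each, and some of those of KRT40 overlap, so windows are not independent. A siNS consensus region overlapped 2 of the 38 windows, those of KRT4 and KRT8, against 50.6% of the 22199 windows of protein-coding genes. KRT7, KRT18, KRT19 and KRT80 are among the 21 keratins without a window, and 4 of the 5 keratin siNS consensus regions that cover the first or last base of their gene lay at these genes, so the count over windows leaves them out. The windows are shown because they hold control TLE3 peaks, and that of the basal keratin KRT5 is shown as a window with no peak in any library. Letters in capitals mark motif matches. All 3 windows are on the minus strand and are written 5′ to 3′ along the gene.
KRT4 (chr12:52814067-52814366): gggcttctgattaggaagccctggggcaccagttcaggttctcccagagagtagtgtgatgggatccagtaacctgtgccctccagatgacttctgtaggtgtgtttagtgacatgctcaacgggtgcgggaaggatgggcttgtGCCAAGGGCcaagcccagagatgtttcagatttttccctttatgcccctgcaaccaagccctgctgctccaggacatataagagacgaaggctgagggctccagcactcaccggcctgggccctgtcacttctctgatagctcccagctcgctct
KRT8 (chr12:52926420-52926719): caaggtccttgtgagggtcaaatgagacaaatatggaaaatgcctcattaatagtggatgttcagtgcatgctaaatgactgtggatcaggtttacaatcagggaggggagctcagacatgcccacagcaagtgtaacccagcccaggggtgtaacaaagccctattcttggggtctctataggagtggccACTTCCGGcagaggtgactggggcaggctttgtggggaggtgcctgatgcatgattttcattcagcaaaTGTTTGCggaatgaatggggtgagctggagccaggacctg
KRT5 (chr12:52520345-52520644): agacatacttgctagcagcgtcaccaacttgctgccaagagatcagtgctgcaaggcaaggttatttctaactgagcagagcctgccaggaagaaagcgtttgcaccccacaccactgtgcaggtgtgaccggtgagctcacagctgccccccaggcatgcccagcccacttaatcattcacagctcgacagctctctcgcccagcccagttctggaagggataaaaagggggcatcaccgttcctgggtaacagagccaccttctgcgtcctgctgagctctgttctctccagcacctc

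The KRT8 window, which lies inside the KRT8 gene span at an internal start, held a match to the forkhead motif TGTTTGC and, on the other strand, to the ETS motif CCGGAAGT. The KRT4 window held a match to the AP-2 motif GCCNNNGGC, and the KRT5 window held no match to any of the 8 motifs searched. On both strands, TGTTTGC was present in 3.4% of the protein-coding windows, CCGGAAGT in 5.34% and GCCNNNGGC, which reads the same on both strands, in 27.3%. Among the 11240 windows over a siNS consensus region these shares were 2.34%, 8.27% and 36.6%. Of the 38 keratin windows CCGGAAGT was found in 1 (KRT8) and GCCNNNGGC in 5. In keratin windows TGTTTGC was found in 3 of 38 (KRT8, KRT24 and KRT27) and the other forkhead motif, TGTTTAC, in 1 (KRT40), against 2.85% of all windows. The ETS motif GAGGAAG was found in 9 keratin windows against 14.4% of all, the AP-1 motif TGACTCA in none against 4.01%, the GRHL motif AACCNGTT in 1 against 1.65% and the KLF/SP motif GGGCGGGG in 1 against 29.6%. The median GC content was 45.7% in keratin windows and 62.3% in all windows. A match is a description of the sequence and does not show a bound site.

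The luminal keratins carried more of the control TLE3 regions than any other class. All 5 luminal genes (KRT7, KRT8, KRT18, KRT19 and KRT20) had a siNS consensus region, as did 2 of 8 basal, 3 of 17 hair, 1 of 9 root sheath and 8 of 16 differentiation and other keratins, against 62.1% of all protein-coding genes. The 19 keratins with such a region are 34.5% of the 55 genes. Luminal genes held 29 of the 55 siNS consensus regions assigned to keratins, although their assigned stretches of genome made up 217.6 of 1506 kb. That is 13.3 regions per 100 kb, against 2.19 for basal, 1.4 for hair, 0.467 for root sheath and 2.99 for differentiation and other keratins. Genes within a class differed. KRT80 of the differentiation class had 8 regions in 74 kb, and its class without it 1.74 per 100 kb, while the luminal gene KRT20 had 1 region in 32.5 kb. Of the 46 luminal regions of any kind 63.0% were found in both siNS libraries, against 34.5% of all merged regions. These classes were compared by counts, with no test, because genes and regions are not replicates. At the other extreme, 24 keratins had no region in any library, while 80.9% of protein-coding genes had at least 1. These shares of genes take no account of how much genome was assigned to each gene. Per 100 kb all keratins together had 3.65 siNS consensus regions, against 0.862 along chromosome 12 and 1.92 along chromosome 17. Without KRT7, KRT8, KRT18, KRT19 and KRT80, grouped after their values were seen, the other 50 keratins had 1.52.

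**Figure D1:**
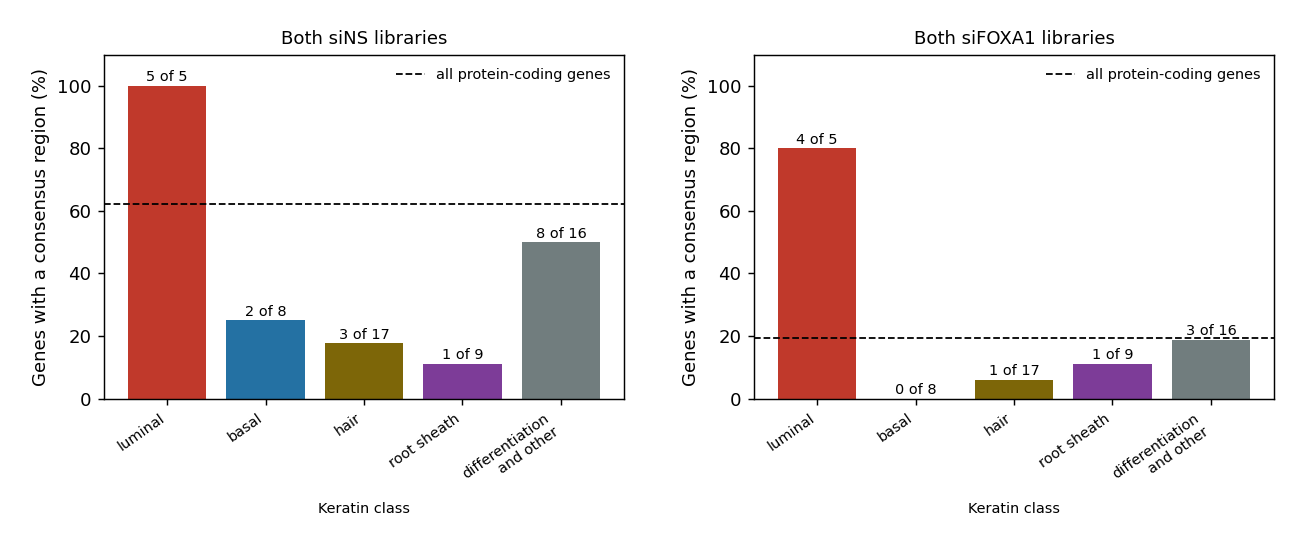
Share of the genes of each keratin class with a consensus region (y axis, percent), in both siNS libraries on the left and in both siFOXA1 libraries on the right, with the number of genes above each bar and the share of all protein-coding genes as a dashed line. The luminal class reaches 5 of 5 genes on the left and 4 of 5 on the right, above the dashed lines at 62.1% and 19.4%. All other classes lie below them, with differentiation and other keratins at 50% and 18.8%.

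The regions were concentrated at the edges of the chromosome 12 cluster and around KRT19. From KRT80 to KRT18 the chromosome 12 cluster spans 783.9 kb (chr12:52168996-52952906) and held 36 siNS consensus regions, which is 4.59 per 100 kb against 0.862 along chromosome 12. Genes are also denser there, and counted by gene the contrast is much smaller. The cluster had 36 regions for 27 keratin genes, and chromosome 12 had 1148 for 1024 protein-coding genes. From KRT222 to KRT17 the chromosome 17 cluster spans 969.9 kb (chr17:40654665-41624575) and held 10, which is 1.03 per 100 kb against 1.92 along chromosome 17. By gene it was lower too, with 10 regions for 28 keratin genes against 1598 for 1169 protein-coding genes of chromosome 17. The 28 leave out at least 34 genes of keratin-associated proteins in the same stretch, so the value over all its genes is lower still. KRT80 and KRT7 lie at the low-coordinate edge of the chromosome 12 cluster and KRT8 and KRT18 at the other. Together with KRT19 these 5 genes, grouped after their values were seen, held 36 of the 55 keratin siNS consensus regions, and the other 50 genes held 19.

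Between these edges lay long stretches with no siNS consensus region. On chromosome 12 the longest was 236.8 kb (chr12:52418417-52655198), which holds 10 keratin genes, among them KRT5, the 3 KRT6 genes and the root sheath keratins KRT71, KRT72, KRT73 and KRT74. It held 2 peaks of siNS 1, 1 of siNS 2 and none of either siFOXA1 library. On chromosome 17 the longest was 526.6 kb (chr17:40936928-41463532), with 8 hair keratin genes and 34 genes of keratin-associated proteins, the matrix proteins of hair. It held 3 and 6 peaks of the siNS libraries and 1 and 3 of the siFOXA1 libraries. Some keratin genes, such as the KRT6 copies or KRT81, KRT83 and KRT86, are near-identical in places, and how reads shared by such copies were placed is not given in the sources used here.

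**Figure D2:**
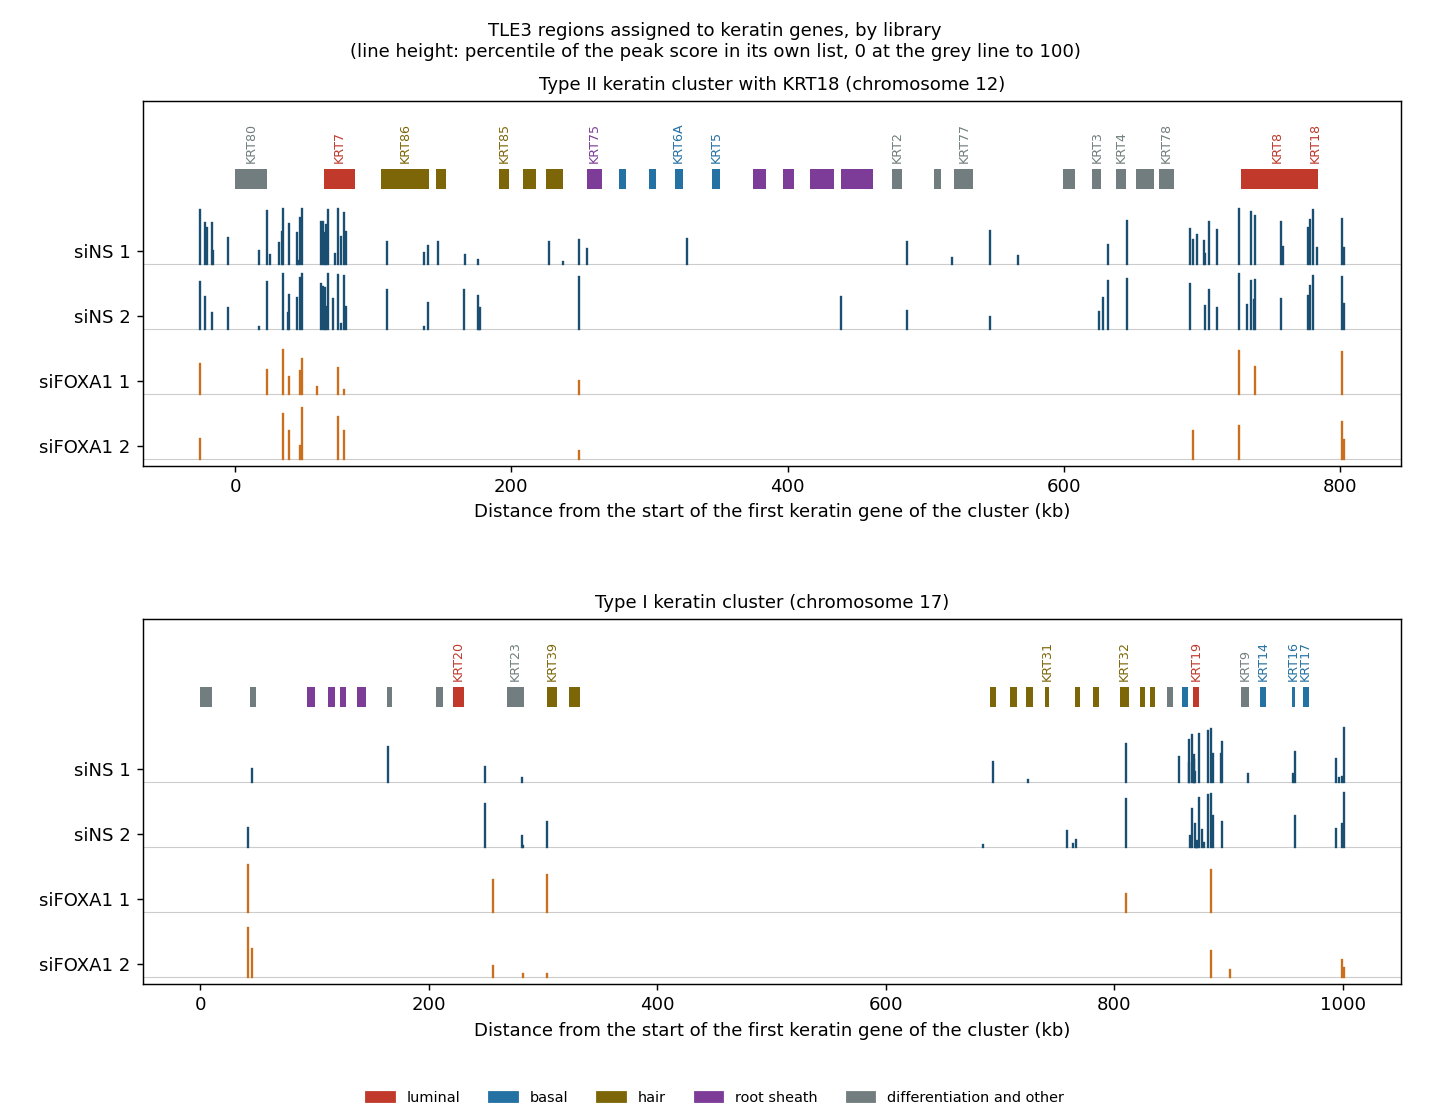
Maps of both keratin clusters, with distance in kb from the start of the first keratin gene on the x axis, genes as boxes coloured by class, and 1 track per library in which each line is a merged region assigned to a keratin gene and its height is the percentile of its peak score in that library's list. KRT8 overlaps the start of KRT18, and KRT81 lies inside the box of KRT86. The siNS tracks are dense at KRT80 and KRT7, at KRT8 and KRT18, and at KRT19, and nearly empty over KRT6A, KRT5 and the chromosome 17 hair keratins.

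Fewer keratin peaks were listed after FOXA1 silencing. Peaks in keratin regions numbered 96 in siNS 1, 81 in siNS 2, 18 in siFOXA1 1 and 23 in siFOXA1 2. The control libraries were both above the silenced ones, with 88.5 ± 10.6 against 20.5 ± 3.54 peaks (mean ± SD, n = 2 each; two-sided exact permutation test, p = 0.333). As a share of each list these were 0.213% and 0.174% in siNS and 0.147% and 0.167% in siFOXA1. The shares did not overlap between the groups, but siNS 2 and siFOXA1 2 were closer to each other than the siNS libraries were (0.193% ± 0.0276 against 0.157% ± 0.0143, n = 2 each, exact permutation p = 0.333). The siNS to siFOXA1 ratio was 4.32 for keratin peaks and 3.53 for all peaks. Keratin genes with a peak numbered 28 and 26 in siNS and 10 and 12 in siFOXA1 (27 ± 1.41 against 11 ± 1.41, n = 2 each, exact permutation p = 0.333). Among all protein-coding genes 73.6% and 71.9% had a peak in the siNS libraries and 25.0% and 26.6% in the siFOXA1 libraries.

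By class, luminal keratins had 40 and 39 peaks in siNS and 9 and 10 in siFOXA1. Basal keratins had 11 and 5 in siNS and 0 and 2 in siFOXA1, and hair keratins 11 and 14 in siNS and 2 and 1 in siFOXA1. Root sheath keratins had 3 and 2 in siNS and 1 in each siFOXA1 library, and differentiation and other keratins 31 and 21 in siNS and 6 and 9 in siFOXA1. In each class both siNS libraries were above both siFOXA1 libraries (exact permutation p = 0.333 for each). As a share of their lists, luminal peaks were 0.0887% and 0.0837% in siNS and 0.0735% and 0.0727% in siFOXA1. Hair peaks were 0.0244% and 0.0301% in siNS and 0.0163% and 0.00727% in siFOXA1, also without overlap. The basal share overlapped between the groups, with 0.0244% and 0.0107% in siNS and 0% and 0.0145% in siFOXA1. So did the share of differentiation and other keratins, with 0.0687% and 0.0451% in siNS and 0.049% and 0.0654% in siFOXA1. The root sheath share, which rests on 1 to 3 peaks a library, was lower in both siNS libraries (0.00665% and 0.00429%) than in both siFOXA1 libraries (0.00816% and 0.00727%).

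Of the 55 keratin siNS consensus regions 19 were kept, which is 34.5% (exact 95% binomial interval 22.2 to 48.6%, for counting error over regions). Over all siNS consensus regions 17.0% were kept. With every list limited to its 12249 highest-scoring peaks the shares were 57.1% of 21 keratin regions and 32.3% of all. With siNS 1 left out they were 27.2% of 81 and 17.3%, and with siNS 2 left out 22.1% of 95 and 9.55%. The siFOXA1 1 list had a peak in 14 of the 55 and siFOXA1 2 in 16, against 13.4% and 14.0% of all, and 11 had a peak of both, against 10.4%. Luminal keratins kept 11 of 29, differentiation and other keratins 4 of 16, basal keratins 2 of 4, hair keratins 1 of 5 and root sheath keratins 1 of 1. The 4 kept regions of the differentiation class were all at KRT80, and none of the 8 regions at the other genes of that class was kept. Among regions that overlap a gene span the keratin share was 21.7% (5 of 23), against 13.7% of the 18178 such regions of all protein-coding genes. There luminal keratins kept 3 of 15 and the other keratins 2 of 8. Within 10 kb of the span 9 of 32 keratin regions were kept, against 14.3% of such regions of all protein-coding genes. The other 10 of the 19 kept keratin regions lay farther away, 5 of them assigned to luminal keratins.

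Position and strength moved with retention. No more than 1 kb from a protein-coding gene's end lay 10 of the 55 keratin regions, against 42.7% of all siNS consensus regions, and 2 of the 10 were kept, against 6.28% of all such regions. Of the 45 keratin regions elsewhere 17 were kept, against 24.9% of all. Strength was taken from the rank of the authors' score in the lists of siNS 1 and siNS 2. Among the strongest 10% of siNS consensus regions were 10 keratin regions, of which 8 were kept, against 58.0% of all in that group. Of the 45 weaker keratin regions 11 were kept, against 12.4%. The kept keratin regions had a median score percentile of 91.5 in siNS 1 and 92.8 in siNS 2, and those not kept 57.5 and 55.7. The part of position and strength in the keratin share was not tested.

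**Figure D3:**
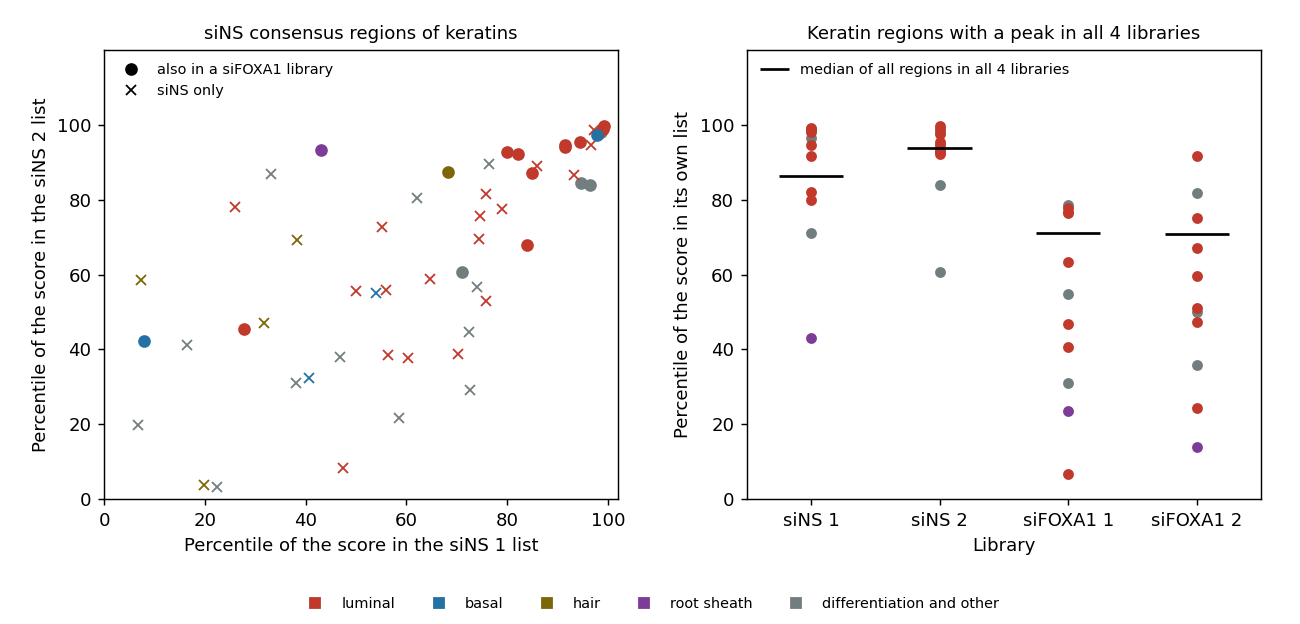
Left, score percentile in the siNS 1 list (x axis) and the siNS 2 list (y axis) of the 55 keratin siNS consensus regions, with filled circles for those also found in a siFOXA1 library, crosses for the others and colours for the class. Right, score percentile in each library's own list (y axis) of the 11 keratin regions found in all 4 libraries (x axis), which have medians of 94.5 in both siNS lists and of 54.7 and 51 in the siFOXA1 lists. Black bars mark the medians of all 2602 such regions of the series, at 86.3, 93.9, 71 and 70.8.

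The 11 keratin regions found in all 4 libraries are described by their rank in each list, and because the lists differ in length these ranks show no change between the groups. Their median percentile was 94.5 in each siNS list, where the 2602 regions of the whole series found in all 4 libraries had medians of 86.3 and 93.9. It was 54.7 in siFOXA1 1 and 51 in siFOXA1 2, where those regions had medians of 71 and 70.8. For the 7 luminal regions among them the percentiles ran from 79.9 to 99.2 in siNS 1 and from 92.2 to 99.6 in siNS 2. In siFOXA1 1 they ran from 6.74 to 77.9 and in siFOXA1 2 from 24.3 to 91.7. Scores are given below as the authors deposited them, and they rank peaks within a list and do not measure a change between lists.

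KRT7, the type II partner keratin of many ductal epithelia (chr12:52233243-52255853), had the most regions of any keratin. Its peaks numbered 14 and 13 in siNS and 5 and 4 in siFOXA1, and 4 of the 12 control consensus regions were kept, all with a peak of both siFOXA1 libraries. At least 12 such regions were assigned to 0.25% of protein-coding genes. The region that covers the first base of the span (chr12:52232450-52233629) scored 25.3 and 25.9 in the siNS lists and had no siFOXA1 peak. The 3 regions that follow it inside the gene were likewise without one, including a region at chr12:52235860-52236608 that scored 118 in siNS 1 and 165 in siNS 2 and ranked among the strongest 10%. Further into the gene a region 1935 bp wide (chr12:52242814-52244748) scored 141 and 128 in siNS and 8.79 and 18.1 in siFOXA1. Strong regions of similar siNS rank inside KRT7 therefore differed in whether a siFOXA1 peak was called.

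The other kept KRT7 regions lay at the antisense gene KRT7-AS and outside the span. That at KRT7-AS (chr12:52247172-52248215) scored 62.4 and 79.3 in siNS and 4.43 and 10.6 in siFOXA1. Outside, in the noncoding gene LINC00592 and 15521 bp from KRT7, a region at chr12:52216829-52217722 scored 193 and 179 in siNS and 12.1 and 37.2 in siFOXA1. Its neighbour at chr12:52215526-52216202 scored 35.6 and 63.6 in siNS and 7.93 and 6.75 in siFOXA1. A region found in siFOXA1 1 alone lay 4557 bp from the gene.

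KRT8, the type II keratin of simple epithelia (chr12:52897191-52949860), had 10 peaks in each siNS library, 2 in siFOXA1 1 and 1 in siFOXA1 2. Of its 8 siNS consensus regions 2 were kept. The strongest keratin region of the control lists lay 1056 bp outside its span (chr12:52895128-52896135) and scored 210 in siNS 1 and 274 in siNS 2, at percentiles 99.2 and 99.6. It was present in both silenced libraries with scores of 18 and 12.3. Inside the gene, a region 2228 bp wide (chr12:52903368-52905595) scored 71.3 and 43.6 in siNS and had no siFOXA1 peak, while one beside it (chr12:52906904-52907796) scored 41.2 and 44.3 in siNS and 9.28 in siFOXA1 1, with no siFOXA1 2 peak. The region over the printed KRT8 window (chr12:52926065-52926584) scored 26.6 and 12.7 in siNS and had no siFOXA1 peak.

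KRT18, the type I partner of KRT8 (chr12:52948855-52952906), begins inside the annotated span of KRT8. The region over that overlap (chr12:52948399-52950510) covers an end of each gene, scored 104 in siNS 1 and 79.3 in siNS 2 and had no siFOXA1 peak. Both other siNS consensus regions of KRT18 were kept, and its remaining region had a peak of siNS 1 alone. That at chr12:52969883-52970805, 16977 bp beyond the gene, scored 32.3 and 66.8 in siNS and 17.1 and 14.5 in siFOXA1. Its neighbour at chr12:52971667-52972279 scored 6.11 and 10.7 in siNS and 7.9 in siFOXA1 2. KRT18 had 4 peaks in each siNS library, 1 in siFOXA1 1 and 2 in siFOXA1 2.

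KRT19, the smallest keratin and a marker of luminal breast cells (chr17:41523617-41528308), had 11 peaks in each siNS library, 1 in siFOXA1 1 and 3 in siFOXA1 2. Of its 14 regions 9 had a peak of a single library, 3 of siNS 1 and 6 of siNS 2, with scores of at most 9.72. Of the 5 siNS consensus regions 3 were kept. The region at its high-coordinate end (chr17:41527545-41529736) scored 43.2 and 50.1 in siNS and had no siFOXA1 peak. The widest keratin region, 2918 bp (chr17:41534924-41537841), scored 62.4 and 75.6 in siNS and 2.75 in siFOXA1 2, at the bottom of that list (percentile 0.218). Next to it a region at chr17:41538635-41539792 scored 80.8 and 90 in siNS and 17.2 and 9.55 in siFOXA1. In siFOXA1 2 the region beside the other end of KRT19 (chr17:41521785-41523102) also ranked at the bottom, at 3.15 against 38.9 and 19.5 in siNS.

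KRT20, a keratin of intestinal and urothelial cells placed in the luminal class as a simple epithelial keratin, had a single region, 18288 bp from the gene (chr17:40903530-40904320). It scored 5.8 in siNS 1 and 28.5 in siNS 2 and had no siFOXA1 peak. No peak of any library overlapped the KRT20 span or its promoter window.

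None of the 8 basal keratins had a siFOXA1 consensus region, against 19.4% of all protein-coding genes, while 4 of 5 luminal, 1 of 17 hair, 1 of 9 root sheath and 3 of 16 differentiation and other keratins had one. KRT5 and KRT14, the pair of basal epithelial cells, and KRT6B and KRT6C had no region in any library. KRT6A had 1 region, of siNS 1 alone. KRT15 had 3 peaks of siNS 1 and 1 of siNS 2, none shared, and the strongest lay 395 bp from the gene (chr17:41519285-41520031) with a score of 25.7. KRT16, a keratin of activated epidermis, had a region 66 bp from its end (chr17:41612833-41613266) that scored 11.3 and 13.4 in siNS and had no siFOXA1 peak. No siNS consensus region overlapped the span of a basal keratin.

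The strong region of the basal class lay away from its gene. KRT17, another keratin of activated epithelia and of basal-like breast cancers (chr17:41619442-41624575), had 3 siNS consensus regions, which lay 23614 to 30645 bp from its span, with 5 and 3 peaks in siNS and 0 and 2 in siFOXA1. The strongest (chr17:41655220-41656258) scored 132 in siNS 1 and 120 in siNS 2, at percentiles 97.8 and 97.3, and 6.01 in siFOXA1 2. Beside it, a region at chr17:41653655-41654635 inside the noncoding gene LOC124904004 scored 4.22 and 9.69 in siNS and 7.43 in siFOXA1 2. The remaining region (chr17:41648189-41649094) scored 7.79 and 7.84 and was found in siNS alone. Assignment by distance does not show that a region acts on KRT17. With the distance set to 10 kb, 1 basal keratin (KRT16) had a siNS consensus region, and within gene spans none had. Of all 20037 protein-coding genes 11927 had one within 10 kb and 11374 within the gene span.

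Hair keratins had 19 regions, of which 13 belonged to a single library, a share of 68.4% against 55.4% of all merged regions and 37.0% of luminal regions. The 3 hair keratins with a siNS consensus region were KRT86, KRT85 and KRT32. KRT86, a type II hair shaft keratin whose span (chr12:52274645-52309163) contains KRT81, had 3, with scores of 5.47 to 7.33 in siNS 1 and 3.97 to 20.6 in siNS 2, and no siFOXA1 peak. KRT85 had 1, 15033 bp away in the pseudogene KRT89P (chr12:52344316-52344973), with scores of 4.11 and 14.8. KRT32, a type I hair cuticle keratin, had 1 region 1721 bp wide inside the gene (chr17:41463533-41465253), with scores of 19.5 and 45.5 in siNS and 6.99 in siFOXA1 1, and it was the 1 kept region of the class. KRT39 had a region at its end (chr17:40958078-40958425) with scores of 10.7 in siNS 2, 13.2 in siFOXA1 1 and 4.2 in siFOXA1 2, and no siNS 1 peak. The count of hair keratins with a region depends on the library, since with siNS 1 or siNS 2 left out, when peaks of the other siNS library alone count, it was 7. Of all 20037 protein-coding genes 14482 had a region without siNS 1 and 14776 without siNS 2, against 12435 with both.

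Among the root sheath keratins, which line the growing hair, KRT75 had a siNS consensus region and the others had none. It lay 5654 bp from the gene in the pseudogene KRT90P (chr12:52417428-52418416), with scores of 8.3 in siNS 1, 69.1 in siNS 2, 6.13 in siFOXA1 1 and 5.46 in siFOXA1 2. The siNS libraries were far apart in rank there, at percentiles 43 and 93.2. KRT73 had 1 peak, of siNS 2, and KRT25, KRT26, KRT27, KRT28, KRT71, KRT72 and KRT74 had none.

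KRT80, an epithelial type II keratin next to KRT7 (chr12:52168996-52192014), stood apart in the class of differentiation and other keratins. It had 14 and 9 peaks in siNS, 4 and 3 in siFOXA1, and 8 of the 16 siNS consensus regions of the class, as many as KRT8. The strongest lay 11059 bp from its span (chr12:52203073-52204350) and scored 163 and 142 in siNS and 18.2 and 22.5 in siFOXA1. Those at chr12:52143244-52144347, with 103 and 37.3 in siNS and 10.3 and 8.27 in siFOXA1, and at chr12:52207612-52208411, with 22.1 and 15.8 in siNS and 6.89 and 10.2 in siFOXA1, were also in all 4 libraries. The region over the high-coordinate end of the gene (chr12:52191208-52193036) scored 81.9 and 38.3 in siNS and 8.4 in siFOXA1 1, with no siFOXA1 2 peak.

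The remaining genes of that class had at most 2 siNS consensus regions each. KRT4, a keratin of internal stratified epithelia such as the oesophagus, had the region over the printed window (chr12:52814087-52815011), with scores of 27.2 and 51.3 in siNS and no siFOXA1 peak. KRT78 had regions at chr12:52859790-52860650, with 15.2 and 31.6, and at chr12:52871111-52871632, with 5.04 and 9.49. KRT3, a keratin of the cornea, had 1 at chr12:52800891-52801553 with 6.84 and 44.1. KRT2, KRT77, KRT9 and KRT23 had 1 each, with scores of 4.06 to 23.2 in siNS 1 and 6.1 to 10.4 in siNS 2. KRT1 and KRT10, the pair of differentiating epidermis, had no siNS consensus region, and KRT10 had 1 peak, of siNS 1.

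Keratin regions seen in silenced cells nearly all had a control peak. Of the 14 keratin siFOXA1 consensus regions 1 lacked a siNS peak, against 40.0% of all siFOXA1 consensus regions. It lay 11941 bp from KRT23 in the noncoding gene LOC105371777 (chr17:40910468-40910759) and scored 10.9 and 6.2. KRT24, another type I keratin, had a region 891 bp from the gene (chr17:40696219-40697100) that scored 23.4 in siFOXA1 1 and 30.7 in siFOXA1 2, at percentiles 84.8 and 88.6, and 8.09 in siNS 2, at percentile 34.1, with no siNS 1 peak. Among keratin regions it ranked highest in the siFOXA1 1 list, and below a single KRT7 region in the siFOXA1 2 list.

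**Figure D4:**
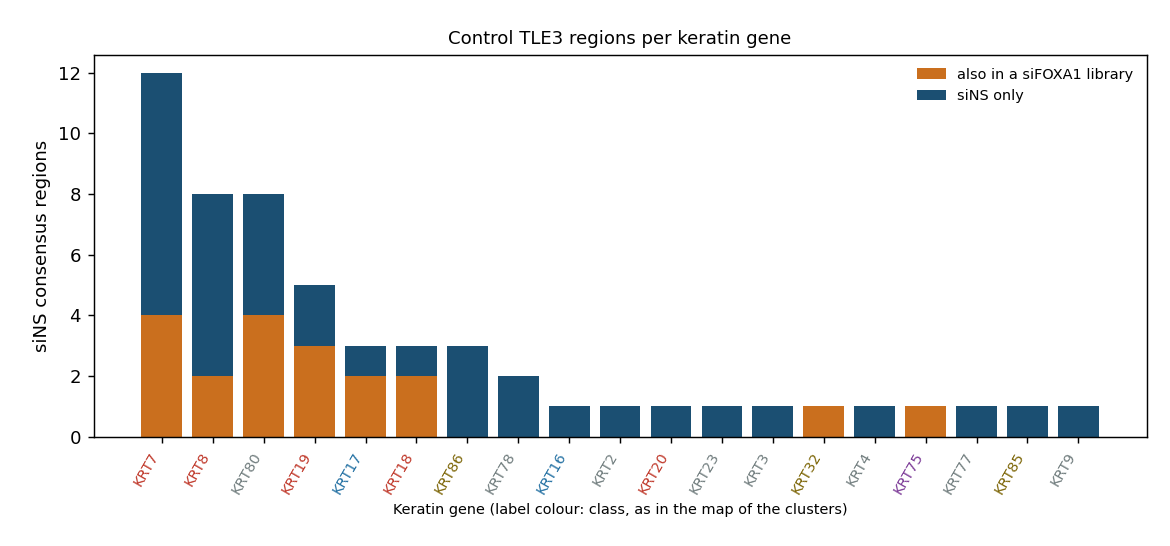
Number of siNS consensus regions (y axis) assigned to each of the 19 keratin genes that had one (x axis, label colour by class), divided into those also found in a siFOXA1 library and those found in siNS alone. KRT7 has 12, KRT8 and KRT80 have 8 each and KRT19 has 5, while 11 genes have a single region.

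Genes whose products work with keratins, or form other filaments, were counted in the same way. All 12 desmosome and linker genes, which anchor keratin filaments at cell junctions or to other cytoskeleton, had a siNS consensus region, against 62.1% of all protein-coding genes. There were 8 such regions at PLEC (plectin) and 5 each at JUP (plakoglobin) and PKP1 (plakophilin 1). Of their 35 regions 9 were kept (25.7%), against 17.0% of all siNS consensus regions. Of 15 genes of other intermediate filaments 9 had a siNS consensus region (60%), close to the share of all protein-coding genes. LMNA, a lamin gene, had 6 and BFSP1 and SYNM 3 each, and 2 of the 20 regions of these genes were kept (10%). Of 94 keratin-associated protein genes 7 had one, which is 7.45% against 62.1% of all protein-coding genes, and none of their 8 regions was kept. KRTAP5-11 on chromosome 11 had 2 of these regions and the other 6 genes 1 each.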

How the data were processed

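The series has 4 TLE3 ChIP-seq libraries and 2 inputs. The inputs, whose source label reads MDA-MB-454, were not analysed here. Groups and replicate numbers came from sample titles (the siFOXA1 2 list has another number in its name). The authors deposited 1 peak list per library, with a score of unstated definition in the last of 5 columns. Trim Galore, BWA 0.7.5a, SAMtools, MACS2 and build hg38 are named per the submitters' processing notes, without settings.

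Mitochondrial peaks were left out. Overlapping genes were separated by the nearer end, and the genome assigned to each gene was sampled every 100 bp. The gene table (RefSeq, GRCh38.p14) has no strand or exons. Members, classes, lists and comparisons were chosen with earlier results of these data known. Keratins with a consensus region, and luminal and basal keratins with a peak, were named; other keratins named, and remarks on single regions, were chosen after their values were seen. The code recovered the libraries of 400 of 400 simulated regions and the gene of 300 of 300. Python 3.11.15, numpy 2.4.6, scipy 1.17.1, matplotlib 3.10.9 and bedtools 2.31.1 were used.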

Additional observations from a re-analysis of the deposited data

How the results depend on the processing

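Keratin peaks and the keratin share of peaks stayed higher in siNS than in siFOXA1 under every alternative tried. The number of keratin genes with a peak did so under all but 1. With every list cut to the 12249 highest-scoring peaks, it was 10 in siNS and 10.5 in siFOXA1, a difference of 0.5 in the other direction, and keratin peaks were 27 against 18.5. Blocking on the replicate number left the differences at -68 peaks, -0.0363 percentage points and -16 genes, with p = 0.5 by an exact sign-flip test, the smallest that 2 pairs allow; the labels do not say that a number marks a shared culture or day. Leaving out a replicate gave differences of -75.5 to -60.5 peaks, -0.0558 to -0.0168 percentage points and -17 to -15 genes.

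The kept share of keratin siNS consensus regions was 57.1% with lists of equal length (32.3% of all regions), 21.7% within gene spans (13.7% of all), and 22.1 to 29.1% without 1 replicate. It was 27.2% without siNS 1 (17.3% of all regions) and 22.1% without siNS 2 (9.55% of all). Without siFOXA1 1 it was 29.1% (13.9% of all) and without siFOXA1 2 25.9% (13.4% of all). With scores from the list median upward it was 24.2% (14.2% of all). Luminal genes with a siNS consensus region numbered 4 or 5 under every alternative, and 4 to 5 without 1 replicate. Basal genes numbered 1 with lists of equal length, 1 within 10 kb, 0 within gene spans and 2 to 4 without 1 replicate. Hair genes numbered 1 when lists were limited to scores from the median upward, 0 with lists of equal length and 3 to 7 without 1 replicate. The cause of these shifts was not tested. Depth is unknown, so the absence of a peak in a siFOXA1 list does not show absence of TLE3.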
